A study of Mus musculus with 144 samples.

Results

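The genes described here are 10 actin regulators and motility genes: *Actb*, *Actg1*, *Cotl1*, *Lpxn*, *Fscn1*, *Cfl1*, *Pfn1*, *Tmsb4x*, *Coro1a* and *Aif1*. They were taken by symbol from a deposited table of 55364 genes, and all 10 were found, each in a single row. All 10 were also among the 8679 genes called measured, which had at least 1 FPKM (fragments per kilobase of exon and 1e+06 assigned reads) in at least 10% of cells. The set was chosen by function and by the differences in mean level between these same time points, with *Cotl1* and *Lpxn* as genes higher and *Fscn1* as a gene lower after injury. Those directions are therefore descriptions of how the set was made and carry no test.

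The data are 144 single-cell transcriptomes of microglia sorted by flow cytometry from the retinas of Iba1-EGFP mice, 16 weeks old, in which a green fluorescent reporter marks cells that use the *Aif1* (Iba1) promoter. The mice had no treatment (54 cells) or were sampled 2 days (54 cells) or 4 days (36 cells) after optic nerve crush, which damages the axons that carry signals out of the retina. Every group therefore carries the reporter, and no sham-operated group is among the samples. Each of 3 plates held 18 untreated, 18 day 2 and 12 day 4 cells, with the time points in separate plate rows, so that plate row and time cannot be told apart. No animal is named in the labels, and a time point is therefore a single sample whose cells are not replicates: no test between time points was run, and standard deviations (SD) and differences within plates describe the spread between cells and plates only.

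Cell movement and the fine processes of microglia are built from actin, a globular protein that joins into filaments and comes apart again. Thymosin and profilin hold monomers ready, the Arp2/3 complex starts branches, cofilin cuts old filaments, and bundling proteins such as fascin tie filaments into the cores of thin protrusions. Microglia are known for constant movement of their processes and for rounding up and migrating after injury.

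Both cytoplasmic actins are among the 10 genes, and their coding sequences differ at scattered bases. The coding bases are only part of the exon lengths of 2679 bases for *Actb* and 2658 bases for *Actg1*. *Actb* lies on the minus strand at chr5:142903115-142906754 and *Actg1* on the minus strand at chr11:120345690-120348542 (GRCm38). Their coding sequences in the GENCODE annotation had 1125 bases each and differed at 128 of them, for an identity of 88.6%, while the encoded proteins of 375 residues differed at 4. The longest stretch without a difference was 62 bases. The first 120 coding bases of each follow, with the 22 bases that differ between them in capitals.
Actb: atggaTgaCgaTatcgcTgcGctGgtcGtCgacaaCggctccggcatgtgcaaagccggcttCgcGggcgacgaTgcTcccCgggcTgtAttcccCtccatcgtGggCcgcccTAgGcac
Actg1: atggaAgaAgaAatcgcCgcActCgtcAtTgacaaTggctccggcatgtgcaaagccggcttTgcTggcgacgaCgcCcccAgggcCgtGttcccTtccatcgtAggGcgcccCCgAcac
*Actg1* also has 6 pseudogene copies that match its transcript at 95% identity or more over at least 200 bases, and *Cfl1* has 2 matches, 1 of them the overlapping gene *Snx32*; the other 8 genes have 0.

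With M for 1e+06, the median depth per cell was 5.31 M assigned reads (0.190 to 18.9 M), and 3 cells had under 1 M. By group it was 4.93 M for untreated cells, 5.32 M for day 2 and 5.80 M for day 4. Genes at 1 FPKM or more numbered 2793, 3473 and 3965 at the median of the same groups. Over all measured genes the median difference was above 0 in each comparison: 0.21 for day 2 minus untreated, 0.45 for day 4 minus untreated and 0.25 for day 4 minus day 2, in mean log2(FPKM + 1). At least 3 of 10 microglial markers were at 20 FPKM or more in 51 of 54 untreated cells, in all 54 cells of day 2 and in 34 of 36 cells of day 4. Markers of another cell type at that level (3 or more of a list) were present in 16 untreated, 16 day 2 and 8 day 4 cells. Most of these came from the list for border macrophages (5, 8 and 2 cells) or from the Muller glia list, which holds *Apoe* (9, 7 and 5 cells). The summed level of the 8 border macrophage markers had a median of 10.7, 10.3 and 5.13 FPKM in the 3 groups. Endothelial and dendritic cell markers reached that level in 0 cells.

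The 10 genes together took a median of 1.71% of the assigned reads of an untreated cell (0.593% to 6.37%), 2.18% at day 2 (0.895% to 9.13%) and 2.55% at day 4 (0.885% to 6.39%). FPKM is scaled by the annotated exon length, which can exceed the transcript. For *Pfn1* it is 2405 bases against 861 in the longest coding transcript, while for *Cotl1* both are 1596. Levels are therefore not strictly comparable between genes. Ranked by median FPKM, *Tmsb4x* stood first and apart at every time, with its lower quartile above the upper quartile of every other gene of the 10. *Aif1*, *Pfn1*, *Cfl1*, *Actb* and *Actg1* followed with medians of 492 to 935 FPKM at day 4 and of 337 to 547 FPKM in untreated cells. Their interquartile ranges overlapped at each time, so the order among these 5 was not separated by the spread between cells. *Coro1a*, *Cotl1*, *Fscn1* and *Lpxn* were lowest in untreated cells. *Lpxn* ranked last of the 10 in untreated cells and *Fscn1* ranked last at day 2 and day 4.

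*Cotl1* encodes coactosin-like protein, which binds actin filaments, and was higher after crush. It lies on the minus strand at chr8:119809222-119840544. In untreated cells its level was 0.403 FPKM at the lowest, 7.61 at the median and 511 at the highest. At day 2 these values were 0.328, 139.6 and 689 FPKM, and at day 4 they were 0.64, 140.5 and 891 FPKM. The ranges of the 3 time points overlapped almost completely, and what differed was how many cells stood at the upper end. The mean of log2(FPKM + 1) was 4.29 ± 2.94 in untreated cells (SD, n = 54 cells), 6.14 ± 2.58 at day 2 (SD, n = 54 cells) and 6.14 ± 2.63 at day 4 (SD, n = 36 cells). The difference from untreated cells was 1.86 at day 2, with 0.81, 2.10 and 2.66 in plates 1, 2 and 3, and 1.85 at day 4, with 0.54, 2.65 and 2.36. Plate 1 thus had the smallest difference at both times, and day 4 minus day 2 was -0.01, with plates of both signs.

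*Lpxn* encodes leupaxin, an adaptor of the paxillin family at cell adhesions, and was highest at day 2. It lies on the plus strand at chr19:12796193-12833807. Its level was 0 FPKM at the lowest, 1.47 at the median and 721 at the highest in untreated cells. At day 2 it was 0, 75.7 and 1681 FPKM, and at day 4 it was 0.116, 3.85 and 667 FPKM. Most untreated cells were thus near the bottom of the scale, while about as many cells of day 2 were high as low. The mean log2 level was 2.66 ± 2.98 without treatment, 4.78 ± 3.27 at day 2 and 3.77 ± 3.03 at day 4 (SD over cells). The day 2 difference from untreated cells was 2.12, with 1.94, 3.11 and 1.31 in the plates. The day 4 difference was 1.11, with 1.84, 1.10 and 0.39, and without plate 1 it was 0.75. Day 4 minus day 2 was -1.01, with -0.10, -2.01 and -0.91 in the plates, and without plate 2 it was -0.51. *Lpxn* was therefore above the untreated level in all 3 plates at both times. Without plate 3 its day 4 difference was 1.47.

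*Fscn1* encodes fascin, which ties filaments into the straight bundles of filopodia, and was lower after crush. It lies on the plus strand at chr5:142960343-142973185. In untreated cells its level was 0 FPKM at the lowest, 6.37 at the median and 134 at the highest. It was 0, 0.548 and 52.1 FPKM at day 2, and 0, 1.67 and 179 FPKM at day 4. All 3 ranges start at 0 and overlap, and the highest single value was in a cell of day 4. The mean log2 level was 2.64 ± 2.15 without treatment, 1.67 ± 1.90 at day 2 and 1.92 ± 1.90 at day 4 (SD over cells). The difference from untreated cells was -0.97 at day 2, with -1.25, -0.89 and -0.77 in the plates, and -0.72 at day 4, with -1.31, -0.15 and -0.69. The day 4 difference was -0.42 without plate 1 and -1.0 without plate 2. On the mean log2 scale *Fscn1* was the only gene of the 10 below its untreated level in the pooled cells at either time, and it was so in all 3 plates at both.

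**Figure D1:**
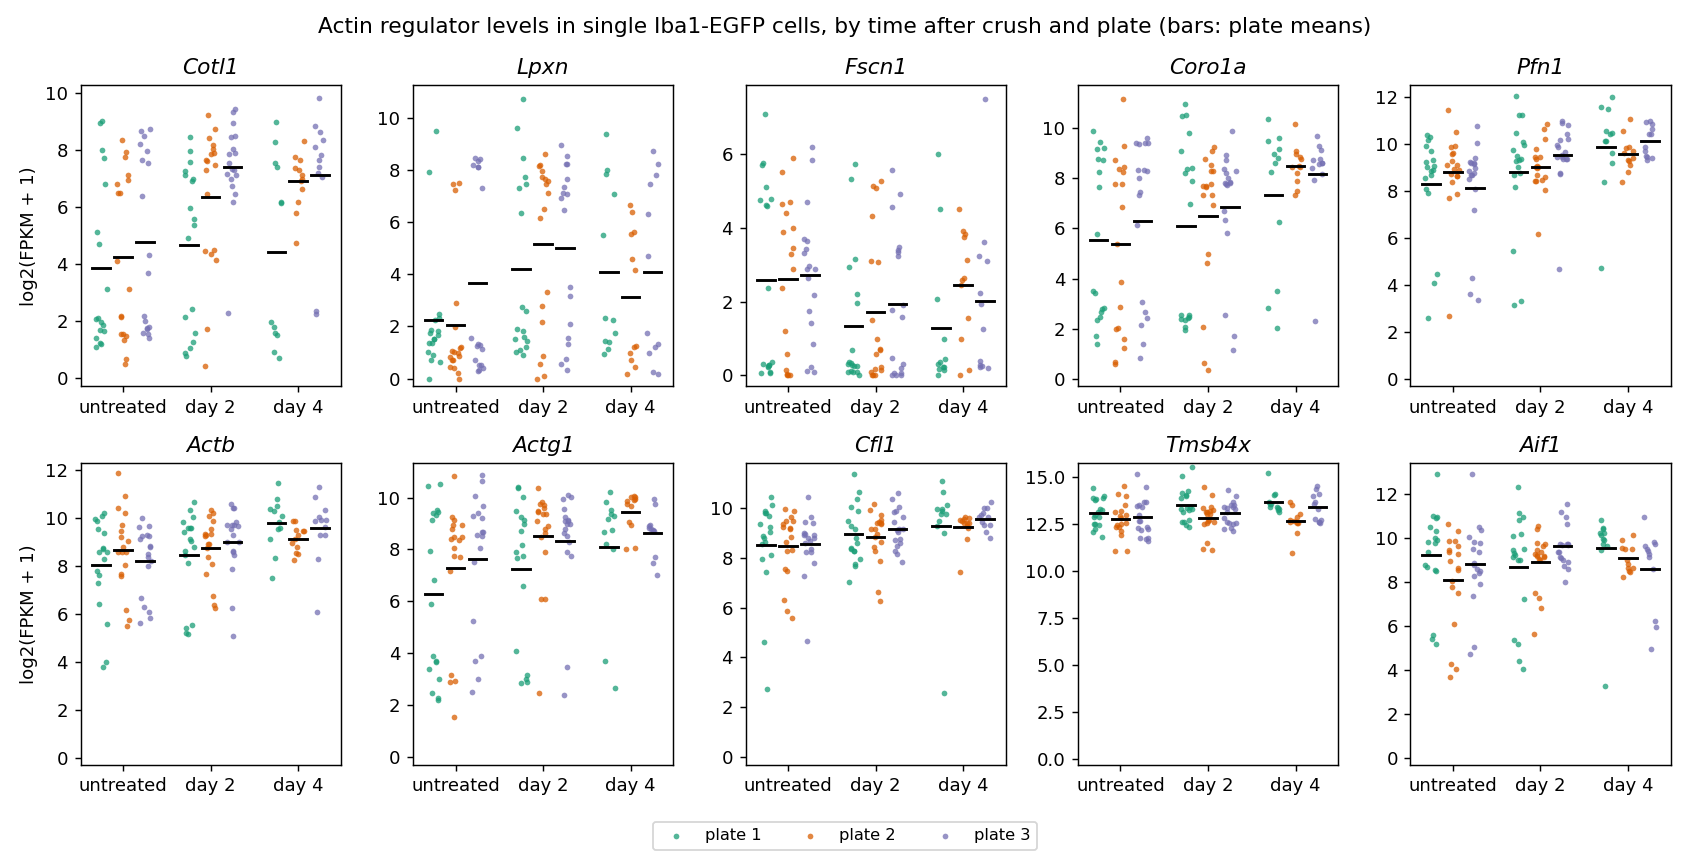
Level of each of the 10 genes in every cell as log2(FPKM + 1) on the vertical axis, by time after crush on the horizontal axis; each point is 1 cell, colours are plates and bars are plate means. *Cotl1*, *Lpxn* and *Coro1a* show a high and a low band of cells whose filling differs between time points, *Fscn1* spreads without a clear gap, whereas *Tmsb4x* is at 2005 FPKM or more in every cell.

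The single-cell values of *Cotl1*, *Lpxn* and *Coro1a* fell into a low and a high band, so the share of cells at 20 FPKM or more was also counted; between 10 and 40 FPKM lay 11, 4 and 5 of the 144 cells for these genes. For *Cotl1*, 23 of 54 untreated cells reached 20 FPKM (42.6%, exact Clopper-Pearson 95% interval 29.2% to 56.8%), 42 of 54 cells at day 2 (77.8%, 64.4% to 88.0%) and 28 of 36 cells at day 4 (77.8%, 60.8% to 89.9%). The cells above that level had a median of 208 FPKM among untreated cells, 179 FPKM at day 2 and 168 FPKM at day 4, and the cells below it had medians of 2.27, 2.12 and 2.21 FPKM. More cells were in the high band after crush. By plate, the high cells had medians of 208, 130.5 and 272 FPKM without treatment, 124, 213 and 184 FPKM at day 2 and 176, 131 and 246 FPKM at day 4, with no direction shared by the plates at either time. For *Lpxn*, 12 of 54 untreated cells were high (22.2%, 12% to 35.6%), 28 of 54 at day 2 (51.9%, 37.8% to 65.7%) and 16 of 36 at day 4 (44.4%, 27.9% to 61.9%). The medians of the high *Lpxn* cells were 273 FPKM without treatment, 199.8 FPKM at day 2 and 117 FPKM at day 4. By plate, the untreated medians were 479.7, 174 and 289.6 FPKM from only 2, 3 and 7 cells, the day 2 medians were 212, 198 and 182 FPKM and the day 4 medians were 231, 47.8 and 200.1 FPKM. Plate 2 had a higher median at day 2 than without treatment, unlike plates 1 and 3. These intervals cover counting error only, and the number of animals behind them is not given in the labels.

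For *Fscn1*, 16 of 54 untreated cells reached 20 FPKM (29.6%, 18% to 43.6%), 8 of 54 at day 2 (14.8%, 6.62% to 27.1%) and 4 of 36 at day 4 (11.1%, 3.11% to 26.1%). The plates held 8, 5 and 3 such untreated cells, 2, 3 and 3 such cells at day 2 and 2, 1 and 1 at day 4, so the untreated share was highest in plate 1, and in plate 3 it was 3 of 18 cells both without treatment and at day 2. *Fscn1* had no clear gap between bands: 27 of the 144 cells lay between 10 and 40 FPKM. With each cell thinned to 1 M reads and the 3 shallower cells left out, the shares were 28.3%, 15.4% and 8.33% for *Fscn1*, 45.3%, 76.9% and 77.8% for *Cotl1* and 22.6%, 53.8% and 44.4% for *Lpxn*. Rod photoreceptor markers, which microglia should lack, reached 20 FPKM in 1.85% (untreated), 1.85% (day 2) and 2.78% (day 4) of cells at the median of 9 markers, with 13%, 3.70% and 8.33% for the most frequent marker. The shares of *Cotl1*, *Lpxn* and *Fscn1* were above that of the most frequent rod marker at each time, except the thinned share of *Fscn1* at day 4, which equalled it. Over all measured genes the median change of this share was 1.85 percentage points at day 2 and 3.70 points at day 4.

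**Figure D2:**
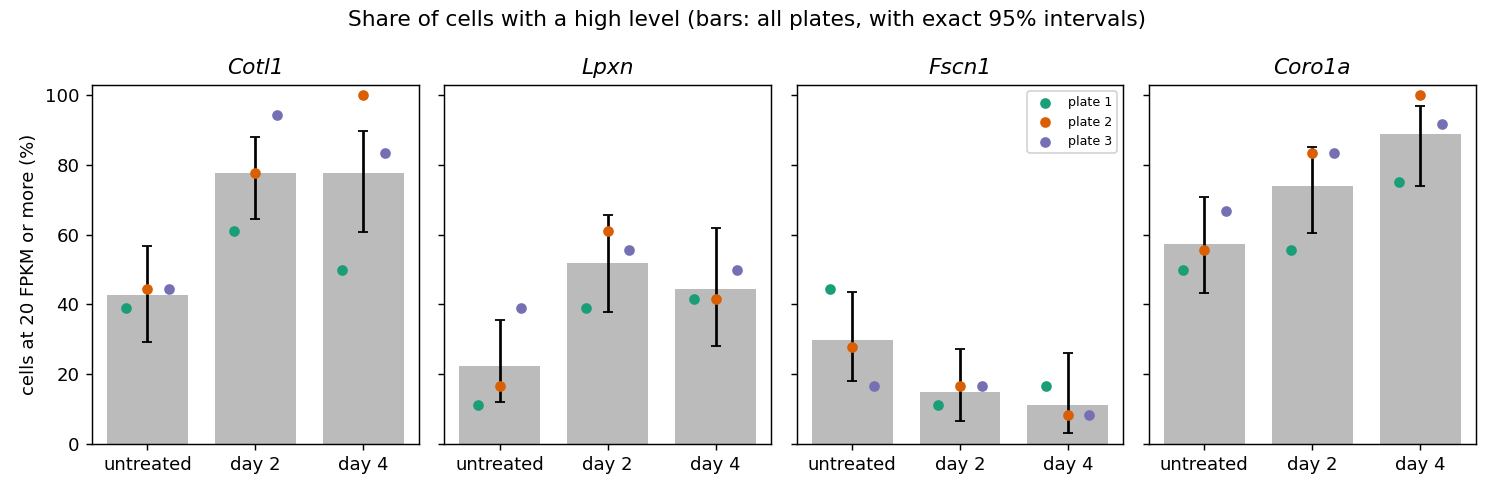
Share of cells at 20 FPKM or more, in percent, for *Cotl1*, *Lpxn*, *Fscn1* and *Coro1a* by time after crush; bars are all plates pooled with exact 95% binomial intervals, and points are the 3 plates. *Cotl1* is at 42.6% in untreated cells and at 77.8% at both day 2 and day 4, *Lpxn* peaks at day 2 with 51.9%, *Coro1a* is highest at day 4 with 88.9%, and *Fscn1* is highest in untreated cells with 29.6%.

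Within single cells, *Cotl1* and *Fscn1* were set against each other directly. The log2 level of *Cotl1* minus that of *Fscn1* averaged 1.65 ± 3.57 without treatment, 4.47 ± 3.05 at day 2 and 4.22 ± 3.11 at day 4 (SD over cells). *Cotl1* was the higher of the pair in 37 of 54 untreated cells, 52 of 54 cells at day 2 and 33 of 36 cells at day 4. *Lpxn* minus *Fscn1* averaged 0.02 ± 3.82 without treatment, 3.11 ± 3.89 at day 2 and 1.85 ± 3.33 at day 4, and *Lpxn* was the higher in 25 of 54, 43 of 54 and 28 of 36 cells of these groups. Cells at 20 FPKM or more for *Fscn1* but not for *Cotl1* numbered 9 without treatment, 0 at day 2 and 1 at day 4. Cells high for both *Cotl1* and *Lpxn* numbered 9 of 54 without treatment, 27 of 54 at day 2 and 13 of 36 at day 4. Most cells high for *Lpxn* were thus also high for *Cotl1* at every time (9 of 12 untreated, 27 of 28 at day 2 and 13 of 16 at day 4), while high *Cotl1* without high *Lpxn* was found in 14 untreated cells, 15 of day 2 and 15 of day 4. Of all cells, 42.6% without treatment and 77.8% at both day 2 and day 4 were high for *Cotl1*. The overlap at day 4 was thus close to the share of all cells high for *Cotl1*.

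The monomers themselves and the proteins that hold them were abundant at all times. *Actb*, beta-actin, had a lowest, median and highest level of 12.6, 385 and 3773 FPKM in untreated cells, 32.5, 588 and 1639 FPKM at day 2 and 66.2, 746 and 2798 FPKM at day 4. *Actg1*, gamma-actin, had 1.92, 337 and 1855 FPKM in untreated cells, 4.26, 491 and 1376 FPKM at day 2 and 5.24, 492 and 1173 FPKM at day 4. The ranges overlapped for both, with fewer low cells after crush: *Actg1* was under 20 FPKM in 16 of 54 untreated cells, 8 of 54 at day 2 and 2 of 36 at day 4. Mean log2 levels at day 4 exceeded those of untreated cells by 1.20 for *Actb* (1.77, 0.46 and 1.38 in the plates) and by 1.67 for *Actg1* (1.83, 2.18 and 1.0). At day 2 the differences were 0.44 and 0.97. On the log2 scale of the mean FPKM, which weights high cells more, the day 4 differences were 0.73 and 0.47.

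The value of *Actg1* cannot be fully told apart from that of its copies. In 99.3% of cells its value, and in 95.1% of cells that of *Actb*, was not a whole number of reads within 0.01 read. Such values can come from reads divided between features. For abundant genes they can also come from rounding of the recovered depth, which grows with the number of reads. These sources were not told apart. Genes without such copies also had values that were not whole reads: 84.7% for *Tmsb4x*, 59.0% for *Pfn1*, 54.2% for *Coro1a*, which overlaps *Bola2*, and 47.9% for *Aif1*. The share was 19.5% for *Fscn1*, 4.86% for *Cotl1* and 0.709% for *Lpxn*. The processed pseudogene *Gm12715*, which matches *Actg1* at 99.6% over 1128 bases, had mean levels of 179 FPKM without treatment, 219.7 FPKM at day 2 and 257 FPKM at day 4. Its day 4 difference was 1.56, with 1.74, 2.13 and 0.81 in the plates. The *Actg1* promoter is shown because it holds the letters of the CArG box, the sequence bound by the serum response factor, a known regulator of actin genes. In the RefSeq promoter windows (GRCm38.p6, 250 bases before to 50 after the start), 9 windows matched 8 of the 10 genes, all but *Actb* and *Cotl1*, and the box was in 1 of the 9, against 1.63% of all 32851 windows. The stretch at chr11:120348543-120348615, minus strand, runs from 120 to 48 bases before the RefSeq start, which lies inside the *Actg1* interval given above. It is given with the box, 90 to 81 bases before that RefSeq start, in capitals.
Actg1 promoter: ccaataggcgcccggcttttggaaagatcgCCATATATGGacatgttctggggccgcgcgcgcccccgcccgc
Both strands were searched, and the match is a description of these letters only. The PU.1 motif GAGGAAGT, in 3.2% of all windows, and the AP-1 motif TGANTCA, in 7.81%, were in 0 of the 9.

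*Pfn1*, profilin, which loads actin monomers for filament growth, had 5.05, 484 and 2804 FPKM (lowest, median and highest) in untreated cells, 7.97, 667 and 4260 FPKM at day 2 and 26.0, 935 and 4098 FPKM at day 4. Every cell of day 4 was at 20 FPKM or more, against 48 of 54 untreated cells. Its day 4 difference was 1.46, with 1.6, 0.76 and 2.02 in the plates, and its day 2 difference was 0.72. *Tmsb4x*, thymosin beta-4, which keeps monomers out of filaments, had 2162, 7550.4 and 36192 FPKM in untreated cells, 2217, 9238 and 46487 FPKM at day 2 and 2005, 10219 and 37872 FPKM at day 4. It was the most evenly expressed of the 10, with an SD of 0.78 to 0.89 on the log2 scale. Its differences from untreated cells, 0.23 at day 2 and 0.33 at day 4, had plates of both signs at day 4, with -0.11 in plate 2. Relative to *Actb* in the same cell, *Tmsb4x* stood 4.61 ± 2.13 higher without treatment, 4.40 ± 1.85 higher at day 2 and 3.74 ± 1.05 higher at day 4 (log2, SD over cells).

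Among the proteins that take filaments apart, *Cfl1*, cofilin, had 5.72, 460.1 and 1389 FPKM in untreated cells, 75.7, 557 and 2594 FPKM at day 2 and 4.94, 728 and 2127 FPKM at day 4. Its day 4 difference of 0.85 was alike in the plates, 0.79, 0.77 and 1.01, and its day 2 difference was 0.48. The *Cfl1* locus at chr19:5490455-5495201 overlaps *Snx32*, and 91.7% of its values were not whole reads, so its level may include divided reads. *Coro1a*, the coronin of leukocytes, which binds filaments and the Arp2/3 complex, had 0.501, 138 and 2324 FPKM in untreated cells, 0.264, 215 and 2009 FPKM at day 2 and 3.08, 389 and 1310 FPKM at day 4. Its mean log2 level was 5.75 ± 3.28 without treatment, 6.49 ± 2.97 at day 2 and 8.01 ± 2.06 at day 4 (SD over cells). The day 4 difference was 2.26, with 1.77, 3.12 and 1.87 in the plates, and day 4 minus day 2 was 1.52, with 1.25, 1.99 and 1.31. The share of cells at 20 FPKM or more was 57.4% without treatment, 74.1% at day 2 and 88.9% at day 4. On the log2 scale of the mean FPKM the day 4 difference was 0.65. The higher mean of logs of *Coro1a* thus went with fewer low cells, as for *Actg1*, while high *Coro1a* cells had medians of 334 FPKM without treatment, 277 FPKM at day 2 and 409 FPKM at day 4.

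*Aif1*, which encodes the actin-bundling protein Iba1 of membrane ruffles, is also the gene whose reporter was used to sort the cells. Its level was 12, 547 and 7630.0 FPKM in untreated cells, 15.5, 622 and 4978 FPKM at day 2 and 8.74, 727 and 1943 FPKM at day 4. Its differences from untreated cells were 0.35 at day 2 and 0.34 at day 4, with plates of both signs, and the order of means turned round on the FPKM scale (907 FPKM without treatment, 854 FPKM at day 2 and 747 FPKM at day 4).

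With a gene called higher or lower when its pooled difference was at least 1 on the log2 scale and of 1 sign in all 3 plates, 6 of the 10 genes were called higher at day 4 against untreated cells (*Actb*, *Actg1*, *Cotl1*, *Lpxn*, *Pfn1* and *Coro1a*) and 0 lower. Of all measured genes 18.9% were called higher and 0.346% lower by that rule. Among the 3583 genes at 1 FPKM or more in at least 30% of cells, which include the 10, these shares were 31.8% and 0.726%, with a median difference of 0.77. At day 2 against untreated cells *Cotl1* and *Lpxn* were called higher and 0 genes lower, where the background was 3.89% higher and 0.0576% lower, and 7.98% and 0.14% among the genes in 30% of cells. Between day 4 and day 2, *Coro1a* was called higher (background 9.57%) and *Lpxn* lower (background 0.864%), with 15.8% and 1.59% among the genes in 30% of cells. By sign alone, 7 of the 10 were higher and 1 lower in all 3 plates at day 4 (background 43.4% and 3.95%), 8 and 1 at day 2 (28.3% and 4.49%), and 5 and 1 between day 4 and day 2 (29.9% and 8.54%). The median difference of the 10 genes was 1.15 at day 4 against 0.45 over all measured genes, 0.60 at day 2 against 0.21, and 0.31 between the days against 0.25. Since the genes were chosen with these contrasts known, the counts are given beside the background without a reading. The count of 6 at day 4 was 4 without plate 1, 2 with medians over cells and 1 with the log2 of the mean FPKM. The number of genes detected moves with time in the same direction: with that number as a covariate, the day 4 differences were 0.59 for *Cotl1*, 0.12 for *Lpxn*, 0.48 for *Actg1* and 1.29 for *Coro1a*, and -0.98 for *Fscn1*. At day 2 with the same covariate they were 1.13 for *Cotl1*, 1.48 for *Lpxn* and -1.12 for *Fscn1*. The part of gene number in these results was not tested further. Without the cells that carried markers of another cell type, the day 4 differences were 1.75 for *Cotl1*, 1.68 for *Lpxn*, 2.57 for *Coro1a* and -1.01 for *Fscn1*.

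**Figure D3:**
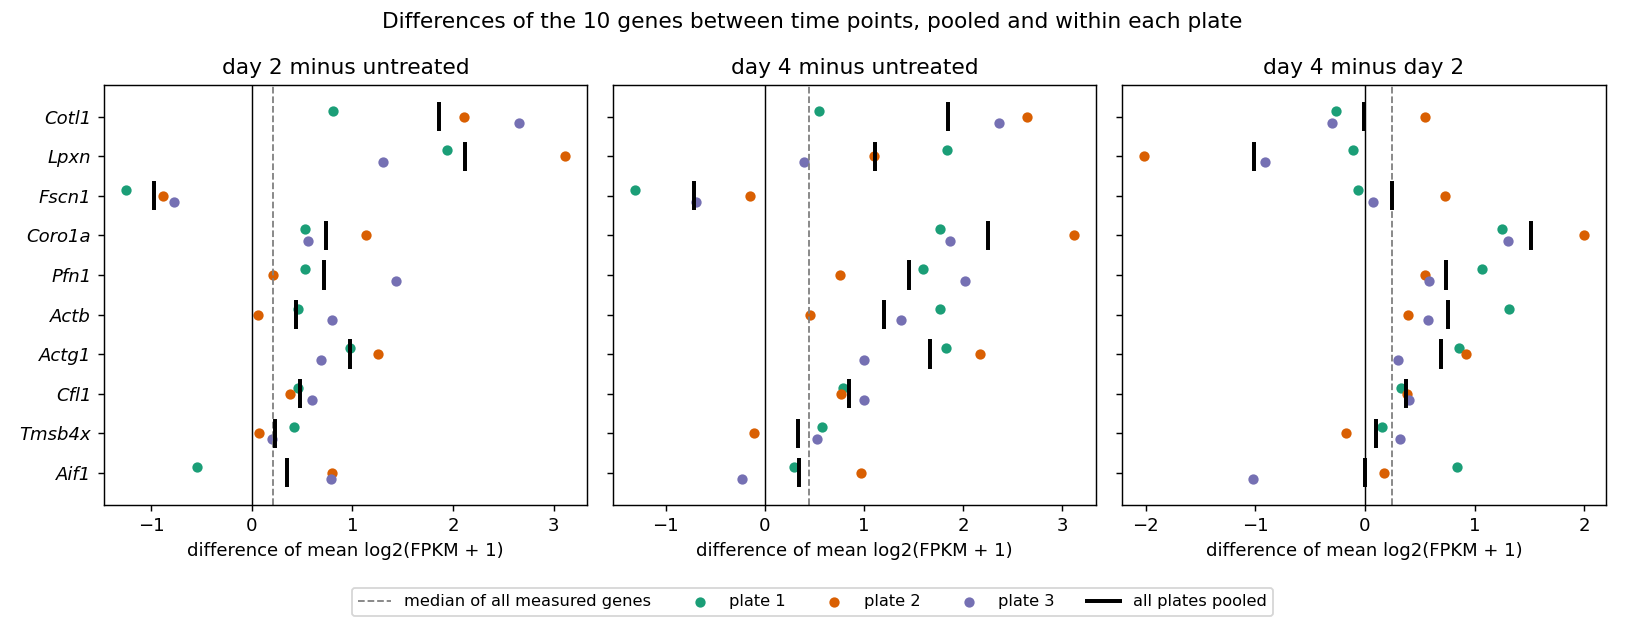
Difference of mean log2(FPKM + 1) between time points for the 10 genes (rows), in 1 panel per comparison; black bars pool all plates, coloured points are the 3 plates and the dashed line is the median of all measured genes. *Fscn1* lies below 0 in all plates in both comparisons with untreated cells, *Cotl1* and *Lpxn* lie above 0 in all plates, and *Lpxn* lies below 0 in all plates between day 4 and day 2.

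*Actb* itself differed from untreated cells by 0.44 at day 2 and by 1.20 at day 4 (1.77, 0.46 and 1.38 in plates 1, 2 and 3). A ratio to it therefore falls where *Actb* is higher, even if the other gene is unchanged. Relative to *Actb* in the same cell, which takes out changes shared with *Actb*, *Cotl1* stood at -4.01 ± 2.86 without treatment, -2.59 ± 2.28 at day 2 and -3.36 ± 2.72 at day 4 (log2, SD over cells). At day 2 the *Cotl1* ratio was above the untreated one in all 3 plates. At day 4 it was -5.38, -2.24 and -2.45 in plates 1, 2 and 3, against -4.16, -4.44 and -3.44 untreated. Plate 1 was thus below its untreated ratio, and plates 2 and 3 were above. *Lpxn* stood at -5.64 ± 3.00 without treatment, -3.95 ± 3.06 at day 2 and -5.73 ± 3.33 at day 4. *Lpxn* thus exceeded its untreated ratio at day 2, in all 3 plates. The day 4 ratios were -5.69, -5.99 and -5.49 in plates 1, 2 and 3, against untreated ratios of -5.77, -6.64 and -4.51, so plates 1 and 2 were above and plate 3 was below the untreated ratio. *Fscn1* stood at -5.66 ± 2.58 without treatment, -7.06 ± 2.06 at day 2 and -7.57 ± 2.30 at day 4, so it was below its untreated ratio at both times.

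Variation between cells of the same plate and time, with the number of detected genes taken out, joined some of the genes and not others. Over the 144 cells, which share plates and library preparation, Pearson's r was 0.43 for *Actb* and *Pfn1*, 0.35 for *Actb* and *Actg1* and 0.33 for *Cfl1* and *Tmsb4x*. It was negative for *Actg1* and *Tmsb4x* (-0.37) and for *Lpxn* and *Tmsb4x* (-0.34). Over all 45 pairs the median was 0.02. *Cotl1* and *Lpxn*, both higher after crush, had an r of 0.09, and *Fscn1* had -0.01 with *Cotl1* and -0.06 with *Lpxn*. The genes that differed in opposite directions between time points thus had an r near 0 with each other within a time point.

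**Figure D4:**
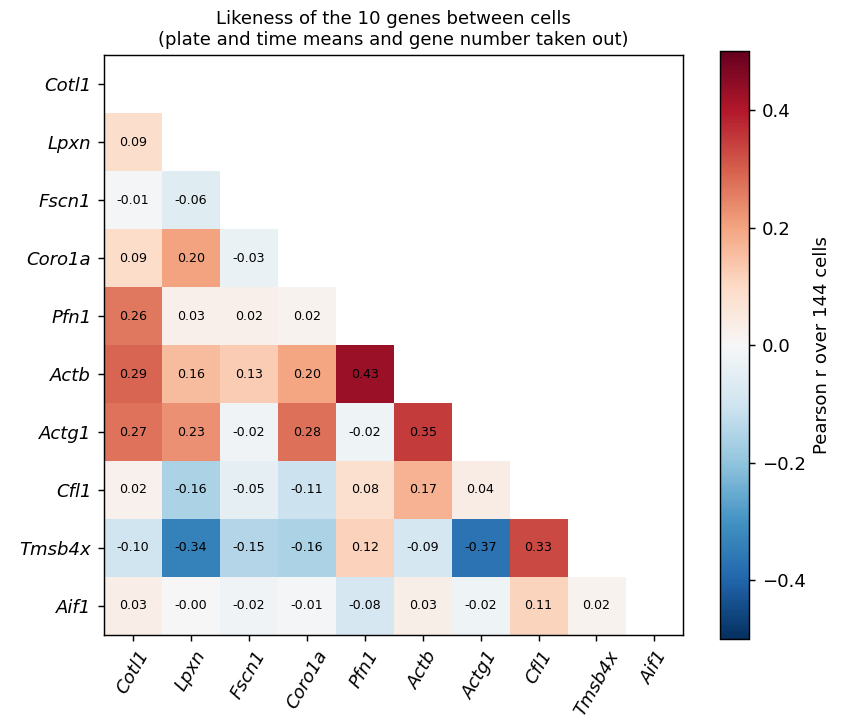
Pearson's r between the 10 genes over 144 cells, in colour and as numbers, after the means of each plate and time and the number of detected genes were taken out. *Actb* is most like *Pfn1* (0.43) and *Actg1* (0.35), while *Fscn1* is near 0 with *Cotl1* and *Lpxn*.

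Of 1123 genes detected in at least 50% of cells, *Ptma* was among those most like *Cotl1* by the same measure (0.33). Those most like *Lpxn* were *Ppp1r15a* (0.42), *Dnajb1* (0.40) and *Slc11a1* (0.39). Those most like *Fscn1* were *Susd3* (0.36), the microglial marker *Tmem119* (0.30) and *Csf3r* (0.30). At day 4 against untreated cells, *Ppp1r15a* differed by 0.65, *Dnajb1* by 1.25 and *Slc11a1* by 1.14. The median difference of all genes in at least 30% of cells was 0.77.

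Other genes of actin biology were taken from a list of 136 genes in 10 roles, of which 112 were measured. Leaving out the 10 genes above, 28 of 102 (27.5%) were called higher at day 4 and 1 (0.980%) lower, beside 18.9% and 0.346% of all measured genes; at day 2 these were 8 (7.84%) and 0, beside 3.89% and 0.0576%. Among genes in at least 30% of cells, 25 of 71 listed genes (35.2%) were called higher at day 4, beside 31.8% of all such genes, and their median difference was 0.75, beside 0.77. At day 2 these were 7 of 71 (9.86%), beside 7.98%. The share called was thus closer to that of all genes among the more widely detected genes. For the 102 genes the median difference was 0.57 at day 4 and 0.30 at day 2. The 8 called at day 2 were *Gsn*, *Coro1b*, *Capza2*, *Arpc3*, *Brk1*, *Rhoa*, *Myl6* and *Myl12a*, and *Gsn* and *Coro1b* were not called at day 4, with differences of 0.38 and -0.42. Of the actin family beside *Actb* and *Actg1*, *Actr1b*, an actin-related subunit of dynactin, was called at day 4, with 1.44 (0.34, 1.73 and 2.26). The Arp2/3 complex, which starts filament branches, had 6 of 9 subunits called higher at day 4, with a median difference of 1.20. *Actr3* was higher at day 4 by 1.98 (2.78, 1.66 and 1.49 in the plates), *Arpc3* by 1.57 (2.15, 1.42 and 1.13), *Arpc2* by 1.47 (1.58, 0.98 and 1.86) and *Arpc1b* by 1.22 (0.75, 1.23 and 1.67). Of the proteins that sever and turn over filaments, 4 of 13 were called higher at day 4, *Coro1a* among them. *Capg*, a filament-capping protein of macrophages, was higher by 2.65 (3.23, 3.48 and 1.23), with mean levels of 214 FPKM at day 4 against 70.9 FPKM in untreated cells. *Wdr1*, the partner of cofilin in disassembly, was higher by 2.25 (2.40, 2.84 and 1.52).

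The bundling and crosslinking group, to which *Cotl1*, *Fscn1* and *Aif1* belong, was mixed. Called higher at day 4 were 5 of 12, and 1 was called lower, beside 18.9% and 0.346% of all measured genes and 31.8% and 0.726% of those in 30% of cells. *Tagln2*, transgelin-2, was higher by 3.08 (2.60, 4.04 and 2.59), with mean levels of 22.9 FPKM in untreated cells, 93.3 FPKM at day 2 and 167 FPKM at day 4. *Flna*, filamin A, was higher by 2.03 (1.58, 3.14 and 1.37), *Lcp1*, the plastin of leukocytes, by 1.45 (2.69, 1.12 and 0.54), and *Actn4*, an alpha-actinin, by 1.32 (1.12, 2.67 and 0.16). *Lsp1*, a leukocyte actin-binding protein, was the gene called lower, with -1.05 (-0.60, -1.53 and -1.01) and mean levels of 35.7 FPKM at day 4 against 119 FPKM in untreated cells; it is named here because it was the only one. *Fscn1*, at -0.72, was next to it at the low end of the group.

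In the remaining roles the shares called higher at day 4 stand beside the same 18.9% of measured genes and 31.8% of genes in 30% of cells, and roles of so few genes are not set apart from these by their counts. Among nucleation promoters 1 of 15 was called, *Brk1* of the WAVE complex, at 2.35 (1.51, 2.69 and 2.86). Of the myosins and tropomyosins 4 of 11 were called higher, with *Tpm4* at 2.08 (0.22, 3.72 and 2.32), *Myl12a* at 1.54 (0.69, 1.84 and 2.07) and *Myl6* at 1.29 (2.09, 1.23 and 0.55); these 2 myosin light chains were also called at day 2, while *Myl12b* was called at neither time, with 0.07 at day 4 and 0.63 at day 2, and 96.5% and 93.1% of the values of *Myl6* and *Myl12a* were not whole reads. Of the adhesion adaptors 2 of 11 were called higher, *Lpxn* and the integrin activator *Tln1*, at 1.37 (1.81, 2.00 and 0.29). Of the monomer-binding proteins, *Pfn1* alone of 6 was called, and of the capping proteins 2 of 6, *Capza1* at 1.59 and *Capza2* at 1.41, while *Capzb*, at 1.12, had plates of both signs.

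**Figure D5:**
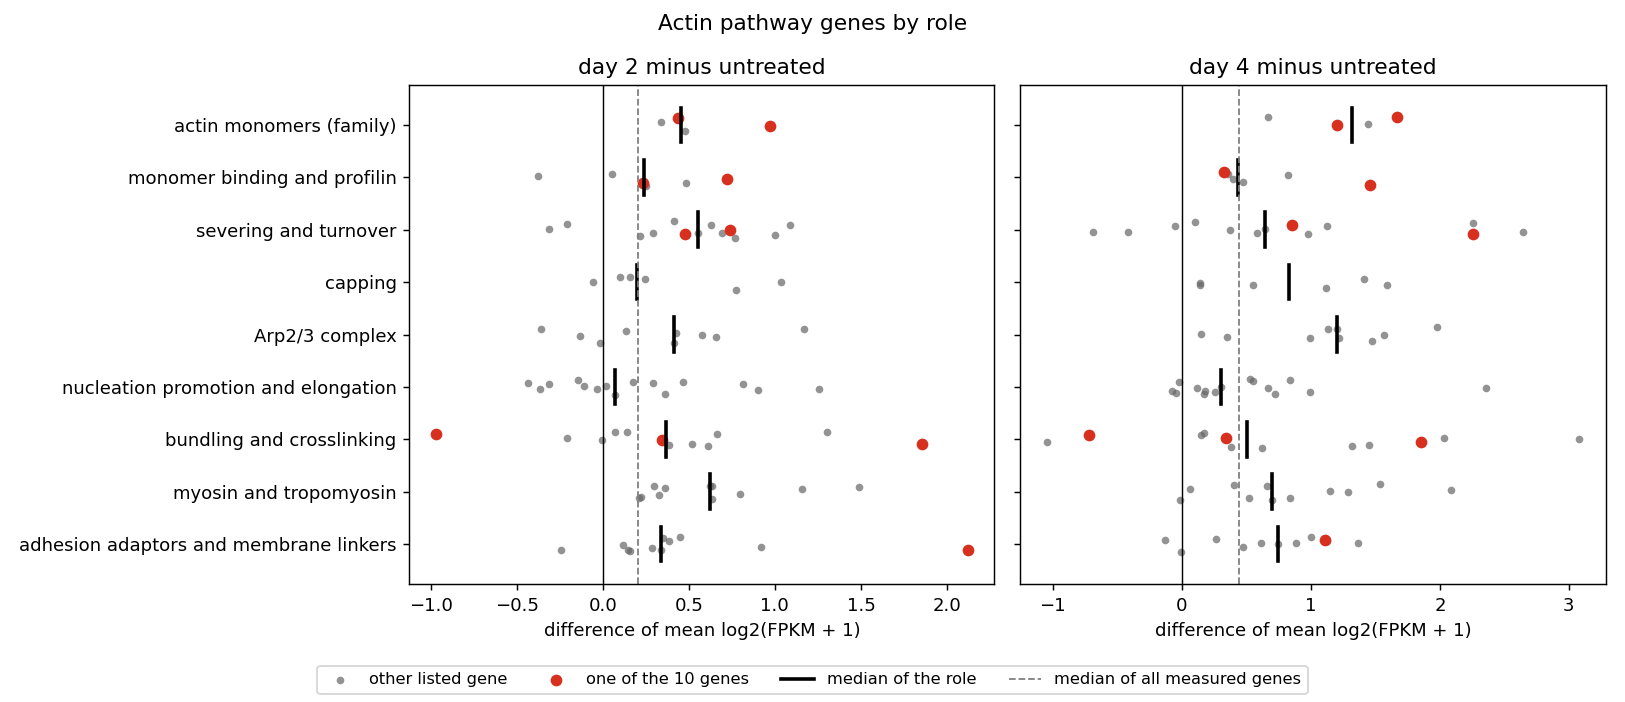
Difference of mean log2(FPKM + 1) from untreated cells for measured actin genes by role (rows, 9 of the 10 roles), at day 2 and day 4; red points are genes of the 10, grey points other listed genes, black bars the median of the role and the dashed line the median of all measured genes. At day 4 the Arp2/3 complex has a median of 1.20, and *Fscn1* and *Lsp1* are the lowest points among bundling genes.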

How the data were processed

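Per the labels' protocols, cDNA from each sorted cell was amplified and made into a library with the Nextera XT kit. The submitters' processing notes name featureCounts 1.6.1, STAR 2.7.2b, cutadapt 1.16, Trimmomatic 0.36 and Trim Galore 0.4.4, with the builds GRCm38.p6 and mm10, and no settings. In 1 deposited table, FPKM values per gene and cell stand beside the exon length. No molecular identifiers are mentioned, so reads are not independent molecules. Depth per cell was recovered from the smallest step of FPKM times length. Many values were fractions of a read, so no count model was used. Because FPKM is a share of reads, a gain of abundant genes lowers all others.

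Values were compared as mean log2(FPKM + 1) over cells, pooled and within plates, which understates the change of low genes. The calling rule and the measured-gene filter are given with the results. The 10 genes, the role and marker lists and the rule for named genes (up to 4 measured genes per role with the largest day 4 difference, and the 3 genes most like *Cotl1*, *Lpxn* and *Fscn1*) were chosen with earlier results of these data known. Copies were found with BLAST 2.17.0 in GENCODE transcripts of GRCm38. Python 3.11.15, pandas 2.3.3 and scipy 1.17.1 were used. Depth recovery and the day 4 call were tried on simulated cells that had no high and low bands and no divided reads. Shares, ratios and likeness were not tried that way. A few listed genes and 1 role are not reported here.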

Additional observations from a re-analysis of the deposited data

How the results depend on the processing

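The number of animals behind a time point is not given, time and plate row cannot be told apart, and low genes are missed in shallow cells, so a level near 1 FPKM limits what can be read. Of 480 alternative values, 404 were classed as the same as the reported one, 76 as moved, and 0 changed sign among called values. A value classed as the same could still be well below the reported one and lose its call. For *Cotl1* at day 4, log2 of the mean FPKM gave 0.81 in place of 1.85, and the gene was then not called. The signs of *Cotl1*, *Lpxn*, *Fscn1* and *Coro1a* against untreated cells were kept in 12 of 12 alternatives each. Part of that count was fixed beforehand, because each of these genes had the same sign in every plate. Leaving out a plate or using plate as a block could therefore not change the sign. *Cotl1*, *Lpxn* and *Fscn1* were also chosen with these directions known, so the count is no test of them.

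With the median over cells in place of the mean, *Cotl1* differed from untreated cells by 4.04 at day 4 and 4.03 at day 2, *Lpxn* by 4.95 at day 2 and *Fscn1* by -1.47 at day 4 and -2.25 at day 2; day 4 minus day 2 was -3.98 for *Lpxn* and 0.78 for *Fscn1*. The median of the 10 genes at day 4 was then 0.80, with 2 called higher and 1 lower, 1 was called lower at day 2, and 0 in either direction between the days. With log2 of the mean FPKM, *Cotl1* differed by 0.79 at day 2 and *Lpxn* by 0.29 at day 4 and 1.18 at day 2; the medians of the 10 genes were 0.55 at day 4 and 0.23 at day 2, with 1 called higher at each time and 0 between the days in either direction. With gene number as a covariate, *Cotl1* at day 4 was 0.59 and *Lpxn* 0.12, the medians were 0.62 at day 4 and 0.36 at day 2, 2 genes were called higher at day 4, 1 lower at day 2 and 0 higher between the days. With a pseudocount of 0.1, *Fscn1* at day 2 was -1.44, 1 gene was called lower, and the median between the days was 0.47. With a pseudocount of 10 it was -0.41, the day 4 median of the 10 was 0.99, and 0 were called lower between the days. Without cells carrying markers of another cell type, *Fscn1* at day 2 was -1.45, the day 4 median 1.5, 1 gene was called lower at each time, and between the days 2 were called higher and 0 lower.

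Leaving out 1 plate at a time, the median of the 10 genes ranged from 0.90 to 1.26 at day 4, from 0.39 to 0.81 at day 2 and from 0.30 to 0.43 between the days. Called higher were 4 to 6 genes at day 4 and 2 to 3 at day 2, and called lower were 0 to 1 in each of the 3 comparisons. With plate as a replicate block the differences equalled the pooled ones, since every plate holds the same number of cells per time: 1.85 for *Cotl1* at day 4. Leaving out cells under 1 M reads (M for 1e+06) and rescaling without the 20 most abundant genes moved none of the main results. The filter on genes left the counts of the 10 as they were but moved the share of all genes called higher: 31.8% at day 4 and 7.98% at day 2 for genes in 30% of cells, and 3.0% and 0.61% with no filter.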
